A study of Mus musculus with 2 samples.

Results

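Stathmins, neurofilament genes and growth cone genes were followed through the differentiation of mouse embryonic stem (ES) cells by RNA sequencing. The set holds 10 genes, of 34376 rows in the gene table, taken as the rows whose symbol is STMN1, STMN2, STMN3, STMN4, NEFL, NEFM, INA, GAP43, CRMP1 or DPYSL3, as the tables write them in capitals. Each symbol matched 1 gene row. The same symbols matched 18 of 55830 promoter rows and 30 of 83402 transcript rows. The genes were chosen by function and by the levels and ratios that this comparison of both libraries gave, so these values are a description without a test.

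The cells were of the line E14, from the mouse strain 129P2/OlaHsd, at passage 29 in both groups. Undifferentiated cells were kept on mitomycin-treated embryonic fibroblasts with leukaemia inhibitory factor and 15% serum. Differentiated cells were grown without feeder cells for 4.5 days in 10% serum with all-trans retinoic acid at 0.1 µM, and are a mixed population. The labels put dead cells at about 2% before and 8% after differentiation, and the part of this difference in the values was not tested. Each group is 1 library read on 2 lanes, so the conditions have no replicate check, and the ± values are SDs between 2 lanes, which cover sequencing and read assignment alone. Values are RPKM, read numbers scaled to the length of the gene model and to the reads of the lane, and the lanes implied 32000000 to 37800000 reads each. Fewer cells of a type and less RNA per cell cannot be told apart in such bulk libraries.

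These genes build and steer the axon. Stathmins bind tubulin dimers and loosen microtubules: Stmn1 is cytosolic and common in dividing cells, whereas Stmn2, Stmn3 and Stmn4 carry a membrane anchor and are known from neurons. Neurofilament light and medium chains (Nefl and Nefm) and alpha-internexin (Ina) form the intermediate filaments of axons. Gap43 is a membrane phosphoprotein of growth cones, and Crmp1 and Dpysl3 belong to the collapsin response mediators, which pass signals of guidance cues to the cytoskeleton.

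The genes did not move as a block. At least 1 RPKM was measured for 9 of the 10 in the undifferentiated library, all but Stmn4, and for 9 of 10 in the differentiated library, all but Stmn3. Log2 ratios set the differentiated over the undifferentiated level after adding 1 RPKM to each, so a weakly expressed gene appears less changed than its plain fold. By at least 2-fold on this scale, Gap43 and Stmn4 were higher in the differentiated library, Stmn2, Ina and Stmn3 were lower, and 5 genes lay between. Of all 17899 genes that reached 1 RPKM in 1 of the libraries or both, 19.1% were at least 2-fold higher and 8.48% at least 2-fold lower. The median log2 ratio was -0.15 over the 10 genes and 0.12 over all of these genes.

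**Figure D1:**
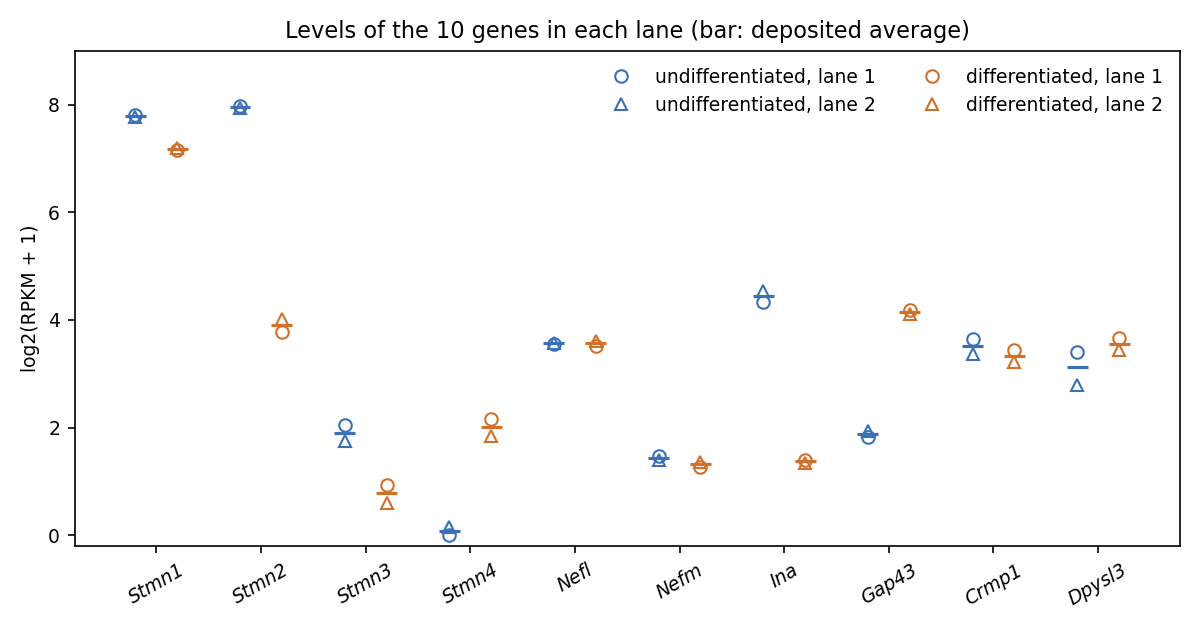
Level of each of the 10 genes as log2(RPKM + 1) on the vertical axis, with circles for lane 1, triangles for lane 2 and a bar for the deposited average, undifferentiated in blue and differentiated in orange. Stmn2 and Stmn1 stand far above the other genes in undifferentiated cells. After differentiation only Stmn1 does, at 144 RPKM (221 RPKM before) against 14.0 for Stmn2.

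Among the stathmins, Stmn2 went from one of the more abundant transcripts of ES cells to a modest level. Stmn2, also called SCG10, lies on mm9 chromosome 3 from 8509527 to 8561604 on the plus strand. Its undifferentiated lanes read 251 and 244 RPKM and its differentiated lanes 12.7 and 15.3 RPKM. Both undifferentiated lanes were far above both differentiated lanes, and the averages differed 17.7-fold (log2 ratio -4.05). In the undifferentiated library 752 of the 17899 genes had a higher level than Stmn2, which placed it at percentile 95.8, against percentile 58.9 in the differentiated library. A total of 31 genes had a lower log2 ratio.

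Stmn1 (chromosome 4, 134024235 to 134029758, plus strand) stayed abundant in both libraries. Its lanes read 223 and 218 RPKM before and 142 and 145 RPKM after differentiation. The levels were thus lower after differentiation in both lanes, but by 1.53-fold (log2 ratio -0.61), short of the 2-fold mark.

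Stmn3 and Stmn4 were rare and went opposite ways. Stmn3, or SCLIP (chromosome 2, 181041164 to 181049205, minus strand), read 3.12 and 2.35 RPKM in the undifferentiated lanes and 0.916 and 0.513 RPKM in the differentiated lanes. The log2 ratio of -1.12 lay just past the 2-fold mark. Stmn4, or RB3 (chromosome 14, 66963133 to 66980517, plus strand), was listed at 0 in undifferentiated lane 1 and at 0.115 RPKM in lane 2, which amounts to about 3.27 reads. In the differentiated lanes it read 3.47 and 2.61 RPKM, or about 120 and 96.9 reads, with a log2 ratio of 1.93. No plain fold is given for Stmn4 because its undifferentiated value rests on so few reads.

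Summed over the 4 stathmin genes, the level was 471 RPKM in undifferentiated and 162 RPKM in differentiated cells, 2.91-fold lower, and the make-up of the sum changed. Stmn2 supplied 52.6% and Stmn1 46.8% of the undifferentiated sum. After differentiation Stmn1 supplied 89.0% and Stmn2 8.67%. Shares of Stmn2 in single lanes were 52.6% and 52.5% before and 7.99% and 9.33% after, so lanes differed far less than libraries.

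Among the filament genes Ina was lower after differentiation, whereas Nefl and Nefm stood at similar levels in both libraries. Ina (chromosome 19, 47089188 to 47099817, plus strand) read 19.3 and 22.2 RPKM in the undifferentiated lanes and 1.63 and 1.55 RPKM in the differentiated lanes. All of its undifferentiated values were above all of its differentiated values, the averages differed 13.0-fold (log2 ratio -3.07), and 104 of the 17899 genes had a lower ratio. Nefl (chromosome 14, 68701920 to 68707152, plus strand) read 10.8 RPKM in both undifferentiated lanes and 10.4 and 11.2 RPKM in the differentiated lanes. The lanes of the libraries overlapped and the averages were both 10.8 RPKM. Nefm (chromosome 14, 68700647 to 68743061, minus strand) read 1.77 and 1.64 RPKM before and 1.40 and 1.58 RPKM after, with a log2 ratio of -0.12. The sign for Nefl and Nefm turned with the scaling of the libraries, over which their log2 ratios ran from -0.12 to 0.23 and from -0.24 to 0.03.

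Other neuronal filament genes complete this family, the heavy neurofilament chain Nefh and peripherin (Prph), which are described here after their values were seen. Nefh stood at 7.06 ± 0.395 RPKM before and 1.57 ± 0.958 RPKM after differentiation (log2 ratio -1.65). Prph, a filament of peripheral neurons, went the other way, from 4.15 ± 0.910 to 13.9 ± 2.12 RPKM (log2 ratio 1.54). The summed level of the 5 filament genes was 44.5 RPKM before and 29.4 RPKM after. Ina made up 46.6% of the sum before and 5.41% after, whereas Prph made up 9.33% before and 47.4% after and Nefl 24.3% and 36.8%.

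The 250 bases before the Ina start are shown because Ina had the lowest ratio among the genes whose promoter was found in the RefSeq table (build GRCm38.p6), which held entries for Ina, Stmn3 and Crmp1, 3 of the 10 genes. The window is chromosome 19, 47014431 to 47014680 on the plus strand of that build, and capitals mark the Sp1 box GGGCGG on either strand.
Ina: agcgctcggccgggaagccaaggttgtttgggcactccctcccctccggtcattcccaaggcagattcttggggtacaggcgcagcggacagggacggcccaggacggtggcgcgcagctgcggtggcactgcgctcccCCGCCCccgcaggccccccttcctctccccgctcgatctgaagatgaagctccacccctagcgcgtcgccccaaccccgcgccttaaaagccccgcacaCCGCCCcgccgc
This window held 25 CG dinucleotides, more than 89.3% of the 32851 promoter entries of the table, whose median was 6. The Sp1 box occurred at 2 places, and 32.7% of all entries held it. On mm9 the bases before the Ina start lie within the row of Nt5c2, a gene on the opposite strand, so these counts cannot be assigned to Ina alone. The letters CCAAT (held by 33.8% of entries), TATAAA (12.4%) and the parts TTCAGCACC (0.301%) and GGACAGC (5.28%) of the RE1 element, the site of the neuronal repressor Rest, were not in this window on either strand.

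**Figure D2:**
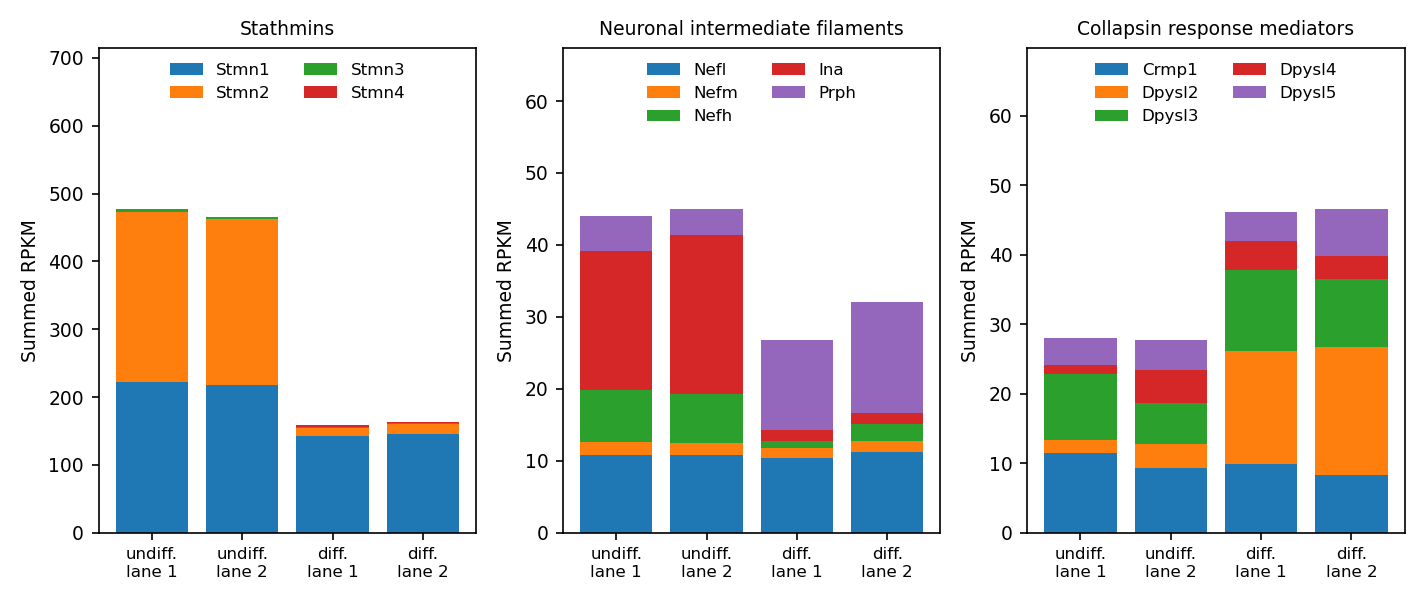
Summed RPKM per lane (vertical axis) of the stathmins, the neuronal intermediate filaments and the collapsin response mediators, with 1 colour per gene and bars from 0. The stathmin bars stand at 477 and 465 RPKM before and 160 and 164 RPKM after differentiation with a much smaller Stmn2 segment, Ina gives way to Prph in the filament bars, and the Dpysl2 segment is larger in the mediator bars.

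Gap43 was the growth cone gene that was higher after differentiation. Gap43 (chromosome 16, 42248555 to 42340764, minus strand) read 2.56 and 2.82 RPKM in the undifferentiated lanes and 17.1 and 16.2 RPKM in the differentiated lanes. Both differentiated lanes were above both undifferentiated lanes, and the averages differed 6.19-fold (log2 ratio 2.26). In the differentiated library Gap43 was second among the 10 genes, above Stmn2. The membrane proteins that resemble it in charge and location, chosen for this comparison with results known, were also higher. Basp1, named after its value was seen, stood at 25.6 ± 0.666 and 99.7 ± 1.03 RPKM (log2 ratio 1.92), and Marcks, a protein kinase C substrate that binds actin, at 4.45 ± 0.136 and 24.1 ± 0.265 RPKM (2.21). Marcksl1, named likewise, lay below 2-fold at 126 and 209 RPKM (0.72).

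Crmp1 and Dpysl3 differed by less than 2-fold before and after differentiation. Crmp1 (chromosome 5, 37633319 to 37683372, plus strand) read 11.5 and 9.30 RPKM in the undifferentiated lanes and 9.84 and 8.27 RPKM in the differentiated lanes. The lanes overlapped between libraries, and the log2 ratio of -0.18 ran from -0.30 to 0.04 over the processing alternatives. Dpysl3 (chromosome 18, 43480633 to 43597940, minus strand) read 9.56 and 5.92 RPKM before and 11.7 and 9.83 RPKM after. Both differentiated lanes of Dpysl3 were above both undifferentiated lanes, and its log2 ratio ran from 0.26 to 0.65 over the processing alternatives. The undifferentiated lanes of Dpysl3 differed from each other by more than the averages did (7.74 ± 2.58 and 10.8 ± 1.30 RPKM, log2 ratio 0.43). Their relative Dpysl2, which binds tubulin dimers, stood at 2.64 ± 1.11 and 17.3 ± 1.54 RPKM (2.33). With Dpysl4 and Dpysl5, named after their values were seen (0.23 and 0.35), the 5 mediator genes summed to 27.9 and 46.3 RPKM, of which Dpysl2 supplied 9.48% before and 37.4% after differentiation.

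In the order of levels, Stmn2 and Stmn1 led the undifferentiated library by about an order of magnitude over Ina. Nefl, Crmp1 and Dpysl3 followed with lanes that overlapped between neighbours, as did Stmn3 and Gap43 below them. In the differentiated library Stmn1 stood alone at the top. Gap43 and Stmn2 came next, Nefl, Dpysl3 and Crmp1 again overlapped with their neighbours, and Ina and Nefm overlapped near the bottom.

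**Figure D3:**
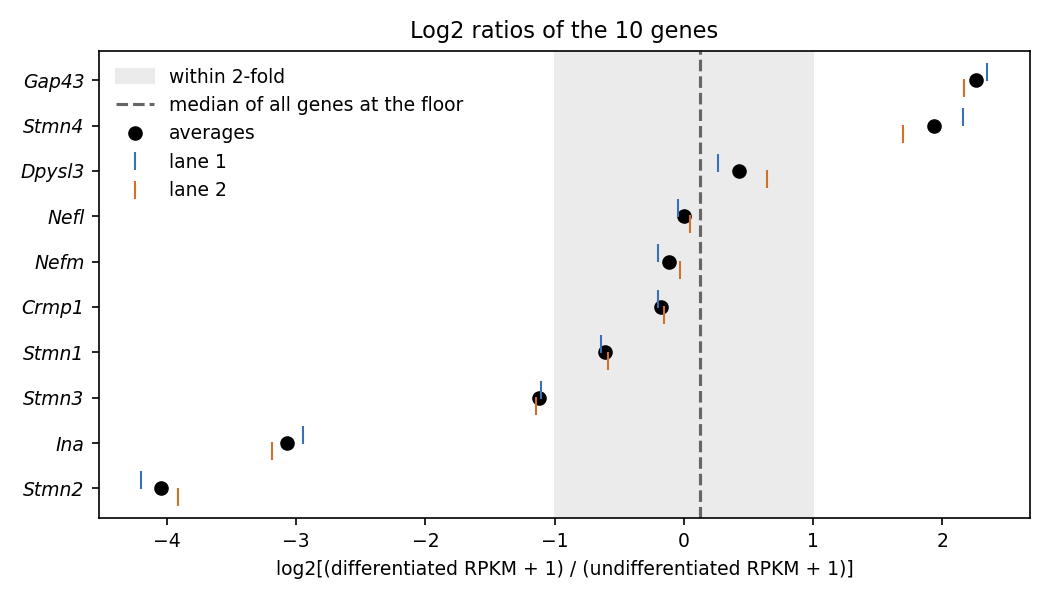
Log2 ratio of each gene on the horizontal axis, from the averages (black dots) and from lane 1 and lane 2 alone (ticks), with the 2-fold range in grey and the median of all genes at 1 RPKM or more as a dashed line. Stmn2 at -4.05 and Ina at -3.07 stand apart on the left, Gap43 at 2.26 and Stmn4 at 1.93 on the right, and both lanes of every gene lie on the same side of the 2-fold marks as the average.

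Promoter rows, which sum the transcripts that begin with one first exon, were used to ask whether any gene changed its start. A share of the gene sum was read as different at 30 percentage points, in genes with at least 2 promoters and at least 5 RPKM in both libraries. Stmn1, Crmp1 and Dpysl3 met these conditions and in none of them did the averages differ by that much, beside 4.54% of 4470 genes that did. The main Stmn1 promoter held 96.1% of the sum before and 96.2% after. The upstream Crmp1 promoter, whose first exon spans 37633319 to 37633764, held 72.6% and 72.9%, and the downstream one (37637031 to 37637335) 27.4% and 27.1%. The match of these Crmp1 averages hides a wide spread of the lanes: the downstream share was 20.3% and 36.2% in the undifferentiated and 11.4% and 45.9% in the differentiated lanes. The largest of the 6 Dpysl3 promoters held 47.4% before and 53.7% after, with 52.4% and 39.3% in the undifferentiated and 53.4% and 54.0% in the differentiated lanes. The next one held 33.5% before and 30.7% after, and its undifferentiated lanes, at 24.7% and 47.7%, differed by more than the averages did.

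Both Crmp1 windows are shown because the values attribute reads to both starts. They are the 250 bases before each RefSeq start on the plus strand of chromosome 5 in GRCm38.p6, from 37241808 to 37242057 (upstream) and from 37245514 to 37245763 (downstream), with the Sp1 box GGGCGG in capitals on either strand. The starts lie 3706 bases apart in RefSeq and 3712 bases apart in the deposited promoter table.
Crmp1 upstream: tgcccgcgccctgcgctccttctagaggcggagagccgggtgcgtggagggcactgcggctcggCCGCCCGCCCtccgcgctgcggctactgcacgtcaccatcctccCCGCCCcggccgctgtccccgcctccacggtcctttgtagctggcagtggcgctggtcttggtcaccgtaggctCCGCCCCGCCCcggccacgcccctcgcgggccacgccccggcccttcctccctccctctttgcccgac
Crmp1 downstream: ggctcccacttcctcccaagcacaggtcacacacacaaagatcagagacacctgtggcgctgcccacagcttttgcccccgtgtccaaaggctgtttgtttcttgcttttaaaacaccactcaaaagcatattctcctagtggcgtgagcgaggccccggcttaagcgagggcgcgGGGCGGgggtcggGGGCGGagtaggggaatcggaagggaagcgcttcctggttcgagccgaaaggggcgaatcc
The upstream window held 30 CG dinucleotides and the Sp1 box at 5 places, the downstream window 16 CG dinucleotides and the box at 2 places. Some of the upstream places share bases, so its capitals form fewer stretches. Of the 32851 entries, 94.1% held fewer CG dinucleotides than the upstream and 74.6% fewer than the downstream window. The RE1 part GGACAGC was found in the upstream window at 1 place. The CCAAT and TATAAA letters and the other RE1 part were in neither window.

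Transcript shares were compared in the same way, over the averages. Stmn1, Stmn2, Crmp1 and Dpysl3 had at least 2 transcripts and 5 RPKM in both libraries, and none had a transcript whose share differed by 30 points, beside 5.31% of 6061 genes. The 3 Stmn2 transcripts share 1 first exon, and the longest held 70.8% of the sum before and 74.3% after, at 175 and 10.4 RPKM. The other models of Stmn2 were lower after differentiation too: the next one stood at 69.9 and 3.53 RPKM and the shortest at 2.42 and 0.0788 RPKM. Stmn1 was led by a model with 69.5% before and 67.2% after.

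Stmn3 did not reach 5 RPKM, so its shares are values only. The full-length model stood at 1.57 RPKM before and 0.0939 RPKM after, and a short model of the 3′ part, from 181041164 to 181043975, at 1.16 and 0.621 RPKM. The short model held 42.4% of the sum before and 86.9% after. In both differentiated lanes its share was the same 86.9%, although the levels of the lanes differed, and the full-length model there amounted to about 4.52 and 2.45 reads.

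**Figure D4:**
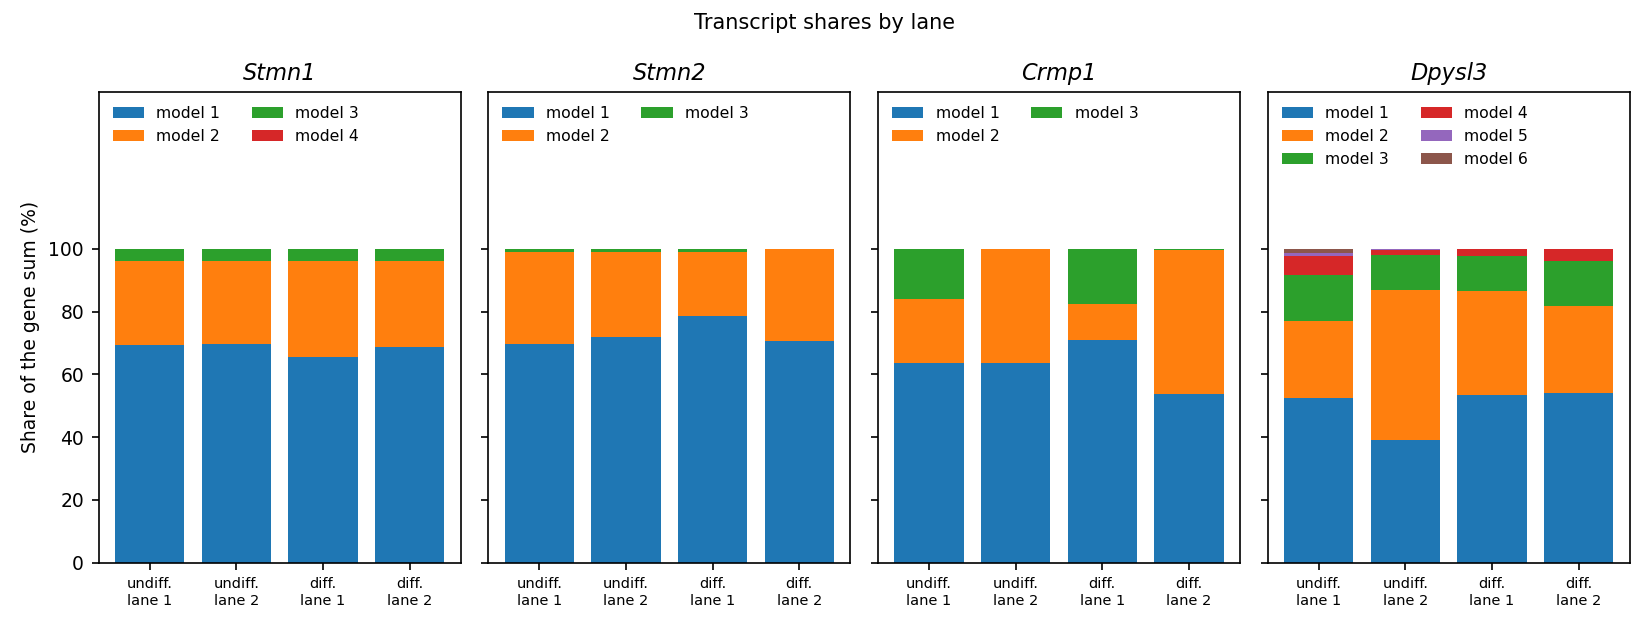
Share of each transcript model in the sum of its gene (vertical axis, percent) in the 4 lanes, for the 4 genes with at least 2 transcripts and 5 RPKM in both libraries, with models numbered by their undifferentiated share. The longest Stmn2 model holds 70.8% before and 74.3% after differentiation, whereas the shares of the Crmp1 and Dpysl3 models differ between lanes of the same library.

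Reads of 36 bases can match more than 1 gene, and the kit did not record the strand. The 36-base windows of those transcripts of the members that have a GENCODE M21 sequence were therefore looked up in the transcripts of other genes on both strands. A sequence was found for every Ensembl transcript identifier of Stmn1, Stmn4, Nefl, Nefm, Ina and Gap43, but for 1 of 2 of Stmn2, 1 of 2 of Stmn3, 2 of 3 of Crmp1 and 5 of 8 of Dpysl3, and the rest were not searched. Stmn4 and Gap43 shared no window with another gene. The searched models of Stmn3 and Crmp1 shared none either, and the searched Dpysl3 models shared 1 of 6219. The searched Stmn3 model, the full-length one, carried 48.4% of the Stmn3 RPKM over both libraries. Its share was 57.6% before and 13.1% after differentiation. The searched Stmn2 model shared 8 of 2038 windows, all with Stmn1, or 0.393%. Of the Stmn1 windows 21.7% occurred elsewhere, most of them in Gm11223.

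Nefl, Nefm and Ina share windows with genes that overlap them. Nefl lies inside the span of a long Nefm model on the opposite strand, and 1073 of the 3345 Nefl windows (32.1%) also belong to Nefm. Of the Nefm windows 18.9% (1086 of 5738) were shared, 1073 of them with Nefl, and 903 other genes held at least 1 of the 1086. That long Nefm model stood at 0.256 and 0.0685 RPKM, against 1.45 and 1.42 RPKM for the shorter model that does not reach Nefl. Ina and Nt5c2, a nucleotidase gene on the opposite strand, overlap by 492 bases at their starts, and Ina shares 13.1% of its windows with it. Nt5c2 stood at 8.38 RPKM before and 13.7 RPKM after, opposite in direction to Ina. Crmp1 overlaps Evc on the opposite strand by 3036 bases, at 3.79 RPKM before and 5.21 RPKM after. It also lies within a same-strand row named RPL7-PS7, spanning 21104697 to 82766697, at 554 and 321 RPKM. The searched Crmp1 models shared no window with another gene. The 3′ part of Dpysl3 holds a further row, BC134356, at 7.58 and 9.89 RPKM on the same strand. How the deposited values divide such reads is not stated in these sources, and its part in these values was not tested.

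Genes that work with the members were taken from lists drawn up with earlier results of these data known. Each count of higher and lower genes, here and below, is to be set beside the shares over all 17899 genes. These were 19.1% higher and 8.48% lower. In the list of paralogues and relatives, 4 of 8 genes at 1 RPKM or more were at least 2-fold higher and 1 was lower, with a median log2 ratio of 1.13. Growth cone and axon guidance genes had 9 higher and 1 lower of 15, with a median of 1.22. They were led by Nrp1, a semaphorin and VEGF coreceptor that endothelium also expresses, at 0.608 ± 0.147 and 17.2 ± 1.01 RPKM (log2 ratio 3.50), and by Robo2, a Slit receptor, at 0.0859 and 6.79 RPKM (2.84). Neuronal microtubule genes had 1 higher and 2 lower of 10, with a median of -0.19. The lower ones were Mapt, the axonal protein tau, at 4.10 and 0.885 RPKM (-1.44), and the neuronal beta-tubulin gene Tubb3, at 37.4 and 14.0 RPKM (-1.36). Among 8 listed kinases and kinase partners linked to stathmins, 5 were at 1 RPKM or more, 1 of them higher (Gsk3b, 1.14) and none lower.

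RNA of some factors that set neuronal expression was below 1 RPKM in both libraries. RNA of all 10 listed genes of the RE1 silencing complex was found in both. Protein was not measured. Of 15 neurogenic transcription factors 8 were below 1 RPKM in both libraries, where 17899 of all 34126 gene symbols reached 1 RPKM in either. Of the other 7 factors, 2 were higher (Ebf2, 1.36, and Myt1, 1.24) and 1 was lower. All 10 genes of the silencing complex, which keeps neuronal genes off in other cells, reached 1 RPKM. Beside 19.1% higher and 8.48% lower of all genes, 1 of these was higher, 2 were lower and 7 lay between. The lower ones were the corepressor Rcor2, at 83.0 and 17.5 RPKM (-2.18), and Rest itself, named after its values were seen, at 44.4 and 19.3 RPKM (-1.16). The higher one was Rcor3, at 1.24 ± 0.722 and 4.16 ± 0.00687 RPKM (1.21). In lane 2 alone its log2 ratio was 0.91, short of the 2-fold mark.

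Markers of whole cell types give the setting of these values. The shares over all genes at 1 RPKM or more were again 19.1% higher and 8.48% lower. Of 14 neuron markers, 6 reached 1 RPKM, none of them was higher and 3 were lower. Their summed level was 17.0 and 17.7 RPKM in the undifferentiated lanes and 6.28 and 8.61 RPKM in the differentiated lanes. Stmn2 alone thus stood above the sum of all 14 markers in undifferentiated cells. The lower markers included Elavl3, a neuronal RNA-binding protein gene, at 3.998 and 0.452 RPKM (log2 ratio -1.78), and Chga, which encodes chromogranin A of secretory granules, at 5.76 and 1.29 RPKM (-1.56). Of 7 neural progenitor markers 5 reached 1 RPKM, 2 of which were higher, Nes (2.98) and Msi1 (1.29), and none was lower.

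Markers of ES cells and of extraembryonic endoderm lay further from 0 than most of the 10 genes, with median log2 ratios of -4.73 and 5.38. All 5 ES cell markers were lower, with sums of 1504 and 1508 RPKM before and 56.9 and 51.6 RPKM after, and of the 10 genes Stmn2, Ina and Stmn3 were also lower. All 8 extraembryonic endoderm markers were higher, from 54.8 and 54.3 to 3932 and 4010 RPKM, and of the 10 genes Gap43 and Stmn4 were also higher. Of 9 fibroblast markers 8 reached 1 RPKM, 4 were at least 2-fold higher and none was 2-fold lower, with sums of 39.3 and 35.8 RPKM before and 232 and 231 RPKM after. Most of the later sum came from Col1a1 (133 RPKM), Col1a2 (48.6 RPKM) and Col3a1 (36.4 RPKM). Fap, Thy1 and Postn had log2 ratios of -0.59, -0.50 and -0.49, and Pdgfrb of 0.50. Col1a2 and these 4 are named after their values were seen. Feeder cells were estimated at under 0.25% of the cells per the labels. Among 6 glia markers 2 of 4 at 1 RPKM or more were higher, and among 6 neural crest markers 1 of 4 was higher and 2 were lower. Over all genes these shares were 19.1% higher and 8.48% lower. No listed marker had an average of 0 in either library. The part of these cell states in the values of the 10 genes was not tested.

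**Figure D5:**
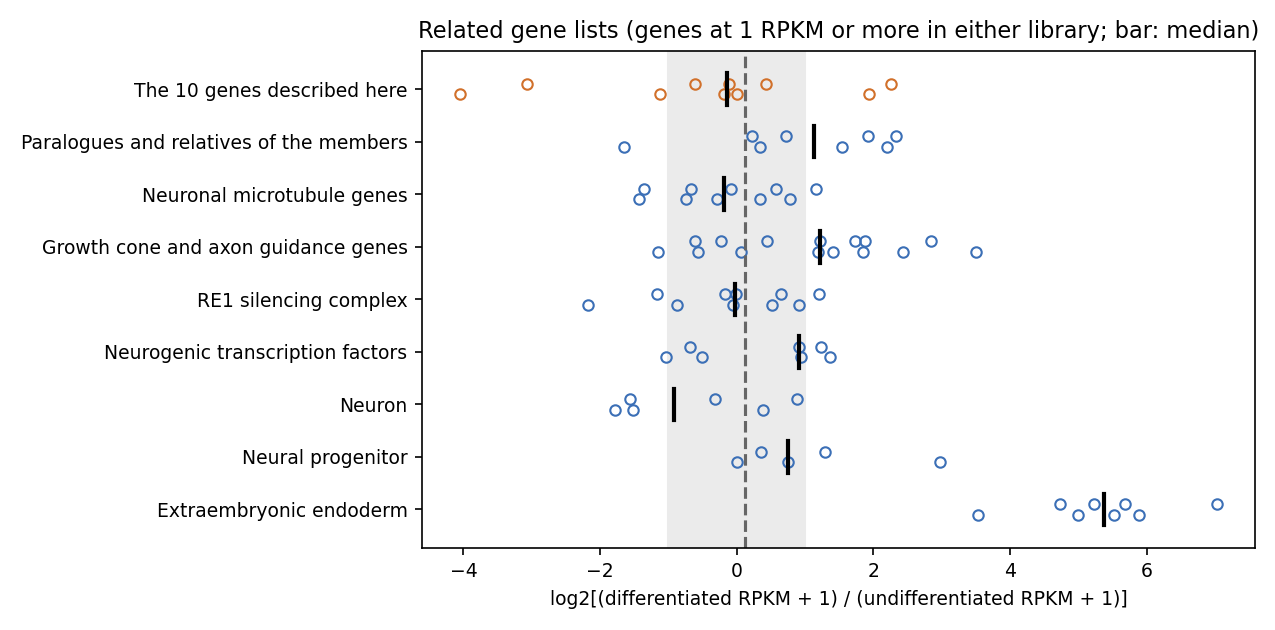
Log2 ratio (horizontal axis) of the 10 genes and of members of 8 related lists that reached 1 RPKM, 1 circle per gene, a bar at each median, the 2-fold range in grey and the median of all genes dashed. The 10 genes spread from -4.05 to 2.26 around a median of -0.15, the axon guidance list has its median at 1.22, and the endoderm list lies wholly to the right.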

How the data were processed

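The authors deposited gene, promoter and transcript tables with values for 4 lanes and lane averages, with mm9 coordinates according to the submitters' processing notes. Aligner, counting program and annotation: not given in the sources used here. No deposited table names its unit, which was read as RPKM. In single-exon genes 82.4% to 82.7% of low values (3547 to 3590 per lane, value times length under 1000) were whole reads within 5% of a read, from which the lane depths follow. The averages equalled the lane means. Coordinates count the first base as 1. Read numbers of members use GENCODE M21 transcript lengths and are approximate.

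Of 488 rows with a repeated symbol, that with the highest mean was kept. With 1 library per group no test was made. Calls used a pseudocount of 1, a floor of 1 RPKM in either library and a 2-fold threshold. The members and the 13 gene lists were chosen with earlier results of these data known. All 125 listed genes were matched, 5 through RefSeq synonyms. Besides the 10 members, at most the 2 genes with the largest absolute log2 ratio per list were to be named; others are said to be named after their values were seen. Pseudocount, floor, scaling, lane and threshold were varied. The depth estimate and the calls were run on simulated data, the calls only for genes well above the floor and for changes well past the threshold. The undifferentiated levels of Gap43, Stmn3, Stmn4, Nefm and Dpysl3 lie below the levels scored there. Calls of weak genes and ratios near the threshold, such as that of Stmn3, were thus not tested. Python 3.11.15, NumPy 2.4.6, pandas 2.3.3 and Matplotlib 3.10.9 were used.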

Additional observations from a re-analysis of the deposited data

How the results depend on the processing

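With the pseudocount at 0.1, with no floor, under 3 scalings and in either lane alone, 2 members were at least 2-fold higher and 3 lower, as reported. A floor of 5 RPKM left 7 members, with 1 higher and 2 lower; Stmn3, Stmn4 and Nefm drop out by construction. At a 3-fold threshold 2 were higher and 2 lower. The members' median log2 ratio was -0.27 after centring on the median, -0.24 with equal upper quartiles and 0.039 with equal column sums, where the median of all genes moved to 0, 0.02 and 0.33. The log2 ratio of Stmn2 ran from -4.20 to -3.82, of Ina from -3.62 to -2.91, of Gap43 from 2.13 to 2.59, of Stmn3 from -1.80 to -1.01, of Stmn1 from -0.74 to -0.37 and of Stmn4 from 1.69 to 4.31, the last with the smaller pseudocount. No paired analysis was possible because each group is 1 library. Depth limits Stmn4 before and full-length Stmn3 after differentiation, which rest on a few reads.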
